A study of Mus musculus with 6 samples.

Results

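The genes described here encode the enzymes of glycolysis and of the pentose phosphate pathway, the glucose carriers that feed them and the carriers that move lactate across the cell membrane. A list of 32 such genes was matched by symbol to the probe sets of the array, taking probe sets with exactly 1 gene symbol in the platform annotation and, for each gene, the probe set with the highest mean. Of the 32 genes, 28 had such a probe set and 27 of these were tested, among 12952 genes tested in all. The exception was Gapdh, whose single-symbol probe sets are the array's own control probe sets and are described separately. For Gpi1, Eno1, Pfkfb1 and G6pdx no probe set with that single symbol was found, so the steps they catalyse are incomplete or not analysed here. The 27 tested genes had 53 single-symbol probe sets above the filter on low values, and the other 5 of the 32 genes enter no count.

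The samples were mouse inguinal fat cells, from a white fat depot under the skin, that had been differentiated in culture. There were 3 control samples, which the labels call non-activated, and 3 samples kept with 1 uM rosiglitazone for 4 days, which the labels call beiging. Rosiglitazone is a thiazolidinedione (TZD) that activates the nuclear receptor PPARγ, and beiging means that white fat cells come to resemble heat-producing brown fat cells. The comparison asked how expression differs when the drug is present. A treatment field of the labels gives the drug for all 6 samples, so groups were taken from the titles. Strain, age and the number of animals or cultures behind the samples are not given in the sources used here, so p-values cover no more than the spread among the 3 arrays of a group, which may be technical.

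Glycolysis splits glucose into pyruvate in the cytosol and yields a little ATP, and its entry is set by glucose carriers, hexokinases and phosphofructokinase. The pentose phosphate pathway branches off after hexokinase, makes NADPH in its oxidative arm and returns sugar phosphates to glycolysis through its non-oxidative arm. In fat cells the glycolytic intermediates also supply glycerol phosphate for triglycerides, NADPH serves fatty acid synthesis, and much of the glucose taken up leaves as lactate through monocarboxylate transporters. Brown and beige fat cells take up and oxidise glucose when they are active, and lactate can also enter them as a fuel.

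Each value is the deposited intensity of a probe set on a linear scale. Medians of the 6 arrays lay between 44.6 and 46.8 and means between 455.2 and 465.9, and 27.99% to 28.95% of values lay under the floor of 16 that was set before log2 was taken. Over the genes tested, arrays of one group correlated at 0.9947 or more and arrays of different groups at 0.970 or less. The thermogenic markers fitted the labels: Ucp1 was at 4.42 to 6.95 on control arrays and 1485 to 1514 with rosiglitazone, and Cidea at 45.9 to 58.5 and 4449 to 4698. These had the largest changes. All 8 measured thermogenic markers rose, against 23.6% of all genes tested, with a median log2 change of 1.12. The smallest rises were in Dio2 (0.27) and Prdm16 (0.69). Of 6 measured fat cell markers Cidec rose (0.28), Retn (−0.87), Pparg (−0.36) and Lipe (−0.23) fell, and Fabp4 (−0.04) and Adipoq (0.04) did not pass the test. Adipoq lay between 12741 and 13396 on all 6 arrays and was called higher after median centring (0.16). With 3 arrays a group, precision is limited throughout, and a 3-against-3 permutation test cannot go below 0.1.

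With rosiglitazone, transcripts of the glucose carrier genes Slc2a1 and Slc2a3 and of Pfkfb2, Pfkfb3 and Pfkfb4 fell (Pfkfb3 was not called after median centring). Most of the measured enzymes from phosphofructokinase to lactate dehydrogenase rose by small amounts. The lactate carrier gene Slc16a1 rose by far more than any other of these genes that was called. The dim lactate carrier gene Slc16a3 was not called and had a wide interval. Of the 27 genes 13 rose, 6 fell and 8 did not pass the test (limma, Benjamini-Hochberg adjusted p under 0.05). Among all genes tested 59.4% were called, 23.6% as higher and 35.8% as lower. All 13 rises and 6 falls were between groups that did not overlap, which held for 64% of all genes. The share of these genes that changed, 19 of 27, is thus not far above the background, and the changes were small: 17 of the 19 were under 1.5-fold, against 70.5% of all called genes. Slc16a1 alone reached 2-fold, by a rise, whereas 6.13% of all genes were called at 2-fold or more, 1.51% as higher and 4.62% as lower. The median log2 change was 0.10 for the 27 genes and −0.05 for all genes tested.

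How the arrays are scaled matters for changes of this size. After quantile normalization 13 of the genes were higher and 7 lower, and after median centring 17 and 5. The same scalings moved the share of higher calls among all called genes from 39.7% to 51.1% and 58.1%. The deposited scale gave 3057 higher and 4635 lower genes, quantile normalization 3942 and 3778, and centring on the median 4558 and 3285. Median centring raised the median change of all genes by 0.12. Called the same way under all 3 scalings were 11 genes as higher and 5 as lower, and 10 and 5 kept their call under each of 17 alternatives. Centring also moved the size of small called changes by over 1.5 times. Among genes that fell, Slc2a3 was at −0.20 and Hk1 at −0.19 after it. Among genes that rose, Pfkp was at 0.32, Aldoa 0.34, Tpi1 0.28, Pkm 0.36, Taldo1 0.36, Ldha 0.21 and Tkt 0.22 after it, and Tpi1 was at 0.085 after quantile normalization. These genes kept their call in those fits.

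**Figure D1:**
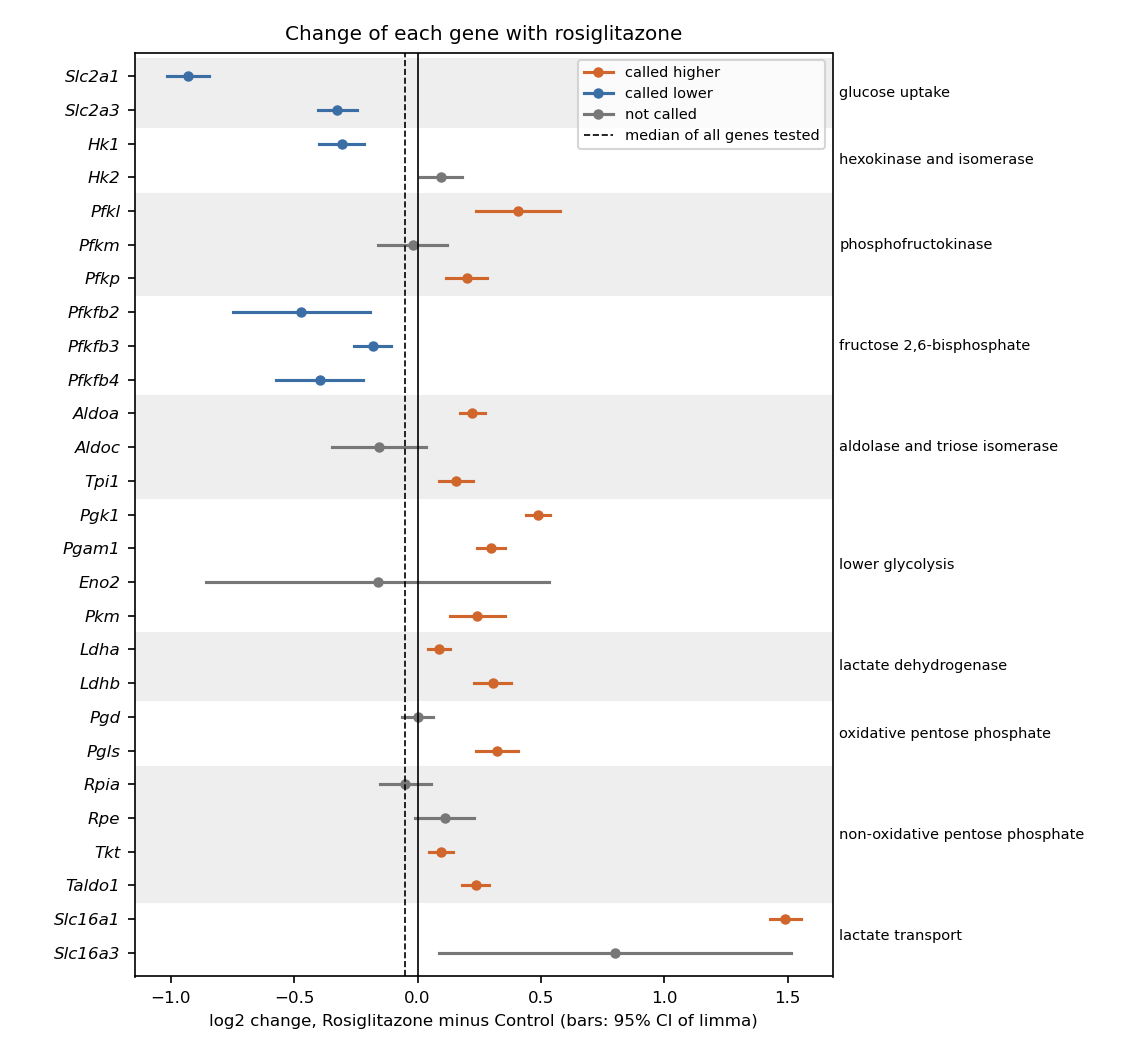
The log2 change with rosiglitazone (horizontal axis) of each of the 27 tested genes, grouped by step, with the 95% confidence interval of limma over 3 arrays a group. The glucose carrier genes Slc2a1 and Slc2a3 and the 3 Pfkfb genes lie left of 0, Pgk1 at 0.49 is the furthest right of the glycolytic enzymes, and Slc16a1 lies at 1.49; the dashed line is the median of all genes tested, −0.05.

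Sequence just upstream of the start site is shown for 3 genes: Slc16a1 and Slc2a1, which had the largest rise and the largest fall of the group, and Pgk1, which had the largest rise within glycolysis. Each line gives 250 bases on the gene's own strand from RefSeq, build GRCm38.p6, with ACGTG or its reverse complement CACGT in capitals. That is the core of the site bound by hypoxia-inducible factors (HIF), the regulators that switch on glycolytic genes when oxygen is low. The windows are chr3:104638414-104638663 for Slc16a1, chr4:119108495-119108744 for Slc2a1 and chrX:106186850-106187099 for Pgk1, all on the plus strand.
Slc16a1: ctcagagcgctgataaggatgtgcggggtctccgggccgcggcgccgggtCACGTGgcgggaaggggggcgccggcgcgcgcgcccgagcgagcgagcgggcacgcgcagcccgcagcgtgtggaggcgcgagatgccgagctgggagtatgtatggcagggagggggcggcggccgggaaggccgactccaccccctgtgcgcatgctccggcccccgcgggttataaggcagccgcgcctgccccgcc
Slc2a1: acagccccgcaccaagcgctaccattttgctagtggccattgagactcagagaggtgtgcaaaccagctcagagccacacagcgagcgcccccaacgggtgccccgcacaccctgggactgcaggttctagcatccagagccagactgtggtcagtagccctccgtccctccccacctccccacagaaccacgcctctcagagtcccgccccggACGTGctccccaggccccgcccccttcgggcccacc
Pgk1: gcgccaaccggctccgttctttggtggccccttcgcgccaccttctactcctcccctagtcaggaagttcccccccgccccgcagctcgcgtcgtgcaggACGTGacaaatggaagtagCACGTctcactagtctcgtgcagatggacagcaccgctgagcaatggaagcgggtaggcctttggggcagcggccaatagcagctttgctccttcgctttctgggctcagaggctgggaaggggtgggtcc
The match in Slc16a1 is CACGTG, an E-box read as ACGTG on both strands, and begins 200 bases before the start. The match in Slc2a1 begins 36 bases before the start, and those in Pgk1 begin 150 and 131 bases before it. Among the 31 listed genes with a window, 12 carried the core in at least 1 window, including these 3. Any link to the direction of change was not tested.

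Windows were listed for 31 of the 32 genes, 49 in all, and windows of one gene can overlap. ACGTG on either strand was in 16 of the 49 (32.7%), against 16.6% of 32851 windows of all genes. The E-box CACGTG, which contains ACGTG, was in 5 (10.2%) against 6.02%, and the Sp1 box GGGCGG in 27 (55.1%) against 32.7%. The perfect DR1 direct repeat, the form of site that PPARγ binds with RXR, was in 0 of the 49 and in 11 of all windows (0.0335%). These are counts of letters in short windows and say nothing of binding.

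Slc2a1 and Slc2a3, the glucose carrier genes of the list, fell, while the related genes Slc2a4 and Slc2a8 moved in opposite directions. Slc2a1 encodes GLUT1, the carrier of basal, insulin-independent glucose uptake. Its intensity was 1426, 1422 and 1376 on the control arrays and 766.9, 730.0 and 718.5 with rosiglitazone, so every treated array was below every control array. It fell by 0.93 on the log2 scale (SE 0.04, limma adjusted p = 7.95e-12), to 0.524 of the control level. Slc2a3 encodes GLUT3, a carrier with high affinity for glucose that is abundant in neurons and blood cells. It was at 1533, 1467 and 1438 in control cells and at 1188, 1186 and 1166 with the drug, again without overlap. It fell by 0.33 (SE 0.04, limma adjusted p = 1.17e-06). The insulin-responsive carrier gene Slc2a4 (GLUT4), looked up among other genes of the pathway after its values were seen, was at 3440 to 3631 in control and 2904 to 2975 in treated cells. It fell by 0.26 (SE 0.03, limma adjusted p = 1.46e-06), or by 0.14 after median centring. Slc2a8 (GLUT8), a carrier found mainly inside cells and also named after its values were seen, was at 562.7 to 594.1 and 620.0 to 673.1. It rose by 0.14 (SE 0.05, limma adjusted p = 0.0174), and by 0.24 after quantile normalization and 0.27 after median centring.

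Markers of several other cell types fell in the same arrays, and fewer cells of a type cannot be told apart from less RNA per cell in such bulk samples. Of 11 measured macrophage markers 10 fell, among them Adgre1 (a log2 change of −1.25) and C1qa (−1.99), and the remaining one, Fcgr1, had a log2 change of 0.29 (limma adjusted p = 0.308). The summed intensity of 12 macrophage probe sets was 11484 to 12484 on control arrays and 3843 to 4159 with rosiglitazone. Of 7 stromal progenitor markers 6 fell, including Pdgfra (−1.17) and the matrix gene Dcn (−1.52), with sums of 25029 to 25622 and 11885 to 12555. Pi16 had a log2 change of −0.16 (limma adjusted p = 0.271). Smooth muscle markers had sums of 7988 to 8426 and 4607 to 4733, with 5 of 6 falling, led by Myh11 (−1.96). The sixth, Des, had a log2 change of 0.21 (limma adjusted p = 0.0405), and its call was lost without control replicate 1 or 2 (0.15 and 0.21) or rosiglitazone replicate 1 or 2 (0.20 and 0.18). It was also lost without a filter, with a filter on the lowest 20% and with a floor of 64 (adjusted p = 0.0908, 0.0718 and 0.0611).

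All 4 measured markers of dividing cells fell, including Mki67 (−1.80, or −0.30 with a floor of 64), with sums of 835.3 to 845.0 and 487.9 to 522.5. Fat cell markers had sums of 55347 to 56121 and 50193 to 50935. Among them Retn was at 11004 to 11467 and 5868 to 6318. Of the 6 measured fat cell markers 1 rose, 3 fell and 2 did not pass the test. Among 6 endothelial markers only Tek passed the filter, falling by 1.15, and both measured red blood cell markers were under the floor on all arrays. Skeletal muscle and epithelial markers were dim and did not fall. Skeletal muscle sums were 269.6 to 296.4 and 261.7 to 329.9. Ckm was at 71.0 to 89.0 and 78.7 to 124.8, so its groups overlapped. It was called higher (0.37, limma adjusted p = 0.0427), and Acta1 (−0.09) did not pass the test. Epithelial sums were 90.89 to 99.97 on control arrays and 90.86 to 99.92 with rosiglitazone. The part these cell types have in the changes of the pathway genes was not tested.

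The hexokinases trap glucose in the cell as glucose 6-phosphate. Hk1, the form found in most tissues, was at 765.9, 770.2 and 736.4 in control cells and at 603.8, 618.0 and 614.1 with rosiglitazone, a fall by 0.31 without overlap (SE 0.04, limma adjusted p = 1.19e-05). Hk2, the insulin-regulated form of muscle and fat, was at 2645, 2584 and 2696 and at 2666, 2784 and 3027. The lowest treated array lay within the control range. Its log2 change was 0.10 (95% CI 0.01 to 0.18, limma adjusted p = 0.0530), just short of passing. It was called higher after quantile normalization (0.13), after median centring (0.22), without control replicate 3 (0.11) and without rosiglitazone replicate 1 (0.14), and its change was 0.045 without rosiglitazone replicate 3.

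Hk3, the hexokinase of white blood cells, was named after its values were seen. It was at 249.9 to 275.8 and 206.1 to 220.9, a fall by 0.28 (limma adjusted p = 0.00200) that was not called after quantile normalization or median centring (−0.15 for both) or when its probe sets were averaged (−0.09).

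Phosphofructokinase, whose subunits are encoded by Pfkl, Pfkm and Pfkp, commits fructose phosphate to glycolysis. The liver-type gene Pfkl rose from 213.9, 220.8 and 177.3 to 262.4, 277.6 and 268.4, with no overlap (log2 change 0.41, SE 0.08, limma adjusted p = 0.000347). The size for Pfkl rests on its brightest probe set, since its other sets gave 0.20 and 0.11 and were not called by themselves, and the mean of its sets gave 0.24. The platelet-type gene Pfkp rose from 1019, 991.1 and 1016 to 1192, 1131 and 1152 (0.20, SE 0.04, limma adjusted p = 0.000306). The muscle-type gene Pfkm did not pass the test, at 331.7 to 359.9 in control and 325.5 to 379.7 in treated cells. Its log2 change of −0.02 (95% CI −0.16 to 0.12, limma adjusted p = 0.817) turned to 0.08 after quantile normalization and 0.10 after median centring, not called either way.

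The Pfkfb genes encode bifunctional enzymes that make and break fructose 2,6-bisphosphate, the strongest activator of phosphofructokinase. All 3 measured genes fell in the probe set used for each. Pfkfb3, the form with the highest kinase over phosphatase activity, was at 3701, 3562 and 3718 in control cells and 3106, 3175 and 3398 with rosiglitazone. The groups did not overlap, and Pfkfb3 fell by 0.18 (SE 0.03, limma adjusted p = 0.000257), though after median centring the change was −0.06 and not called. A second, dim Pfkfb3 set gave −0.09 and was not called (limma adjusted p = 0.596). Pfkfb4 fell from 167.6, 157.2 and 156.0 to 129.9, 118.5 and 116.9 (log2 change −0.40, SE 0.08, limma adjusted p = 0.000626). Pfkfb2, known as the heart form, fell from 78.2, 90.2 and 86.7 to 70.9, 58.3 and 55.6 (log2 change −0.47, SE 0.13, limma adjusted p = 0.00544). This rests on the only Pfkfb2 set above the filter. A Pfkfb2 set just under the filter went the other way, at 21.7 to 28.3 in control and 29.3 to 30.2 in treated cells. The remaining Pfkfb2 sets were dimmer still and overlapped between groups. Tigar encodes a phosphatase that also breaks down fructose 2,6-bisphosphate and turns sugar flow toward the pentose phosphate pathway. It rose from 327.1 to 375.6 in control cells to 576.2 to 605.0 (0.78, SE 0.06, limma adjusted p = 7.51e-09).

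Aldolase and triose phosphate isomerase turn the 6-carbon sugar into a pair of interconvertible triose phosphates. Aldoa, the main aldolase outside liver and brain, was at 9742, 9539 and 9322 in control cells and at 10957, 11130 and 11280 with rosiglitazone. The groups did not overlap, and Aldoa rose by 0.22 (SE 0.02, limma adjusted p = 4.69e-07). Its 4 other probe sets gave rises of 0.24 to 0.32. Tpi1 was at 5728, 5463 and 5930 and at 6107, 6484 and 6492, a rise by 0.16 (SE 0.03, limma adjusted p = 0.000596), with 0.11 and 0.15 in its other sets. Aldoc, the aldolase gene of brain, was at 178.8 to 215.5 in control and 155.5 to 181.8 in treated cells. The groups overlapped, and its log2 change of −0.16 (95% CI −0.35 to 0.03, limma adjusted p = 0.148) did not pass the test.

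Of the lower enzymes, Gapdh makes the first high-energy intermediate, and its array values come from 3 control probe sets along the transcript and 3 sets shared with pseudogenes. The 3′ control set read 7100, 7045 and 6711 in control cells and 8539, 8631 and 8470 with rosiglitazone. With control probe sets kept in the fit Gapdh rose by 0.30 (SE 0.03, limma adjusted p = 4.33e-08), and the middle and 5′ sets gave 0.38 and 0.35. The sets shared with pseudogenes gave 0.88, 0.33 and, in a dim set that did not pass the test, 0.28. The ratio of the 3′ to the 5′ set, a measure of RNA integrity, was 1.05 to 1.12 on control arrays and 0.984 to 1.10 with rosiglitazone. The same ratio for the Actb control sets was 1.75 to 1.85 and 2.29 to 2.58, higher on all treated arrays. Its part in the changes was not tested.

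Pgk1, whose enzyme makes the first ATP of the pathway, was at 6891, 6896 and 6927 in control cells and at 9562, 9888 and 9623 with rosiglitazone. The treated arrays were all far above the controls, and Pgk1 rose by 0.49 (SE 0.02, limma adjusted p = 2.17e-11), or 1.40-fold. Its other sets gave 0.44 and 0.48. Pgam1, a phosphoglycerate mutase gene, rose from 5916, 5931 and 5968 to 7084, 7333 and 7484 (0.30, SE 0.03, limma adjusted p = 4.33e-08). Pkm, which encodes the pyruvate kinase of muscle and most adult tissues outside liver, rose from 1415, 1352 and 1185 to 1586, 1567 and 1511 (0.24, SE 0.05, limma adjusted p = 0.000810). The single probe set of Pkm cannot be read here as its M1 or M2 splice form. The call for Pkm was lost without a filter on low values (adjusted p = 0.0613). Eno2, the neuronal enolase gene, was dim, at 22.1 to 47.7 in control and 20.1 to 48.4 in treated cells. Its log2 change of −0.16 had a 95% CI from −0.86 to 0.53 (limma adjusted p = 0.698), so no difference was detectable at this signal.

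**Figure D2:**
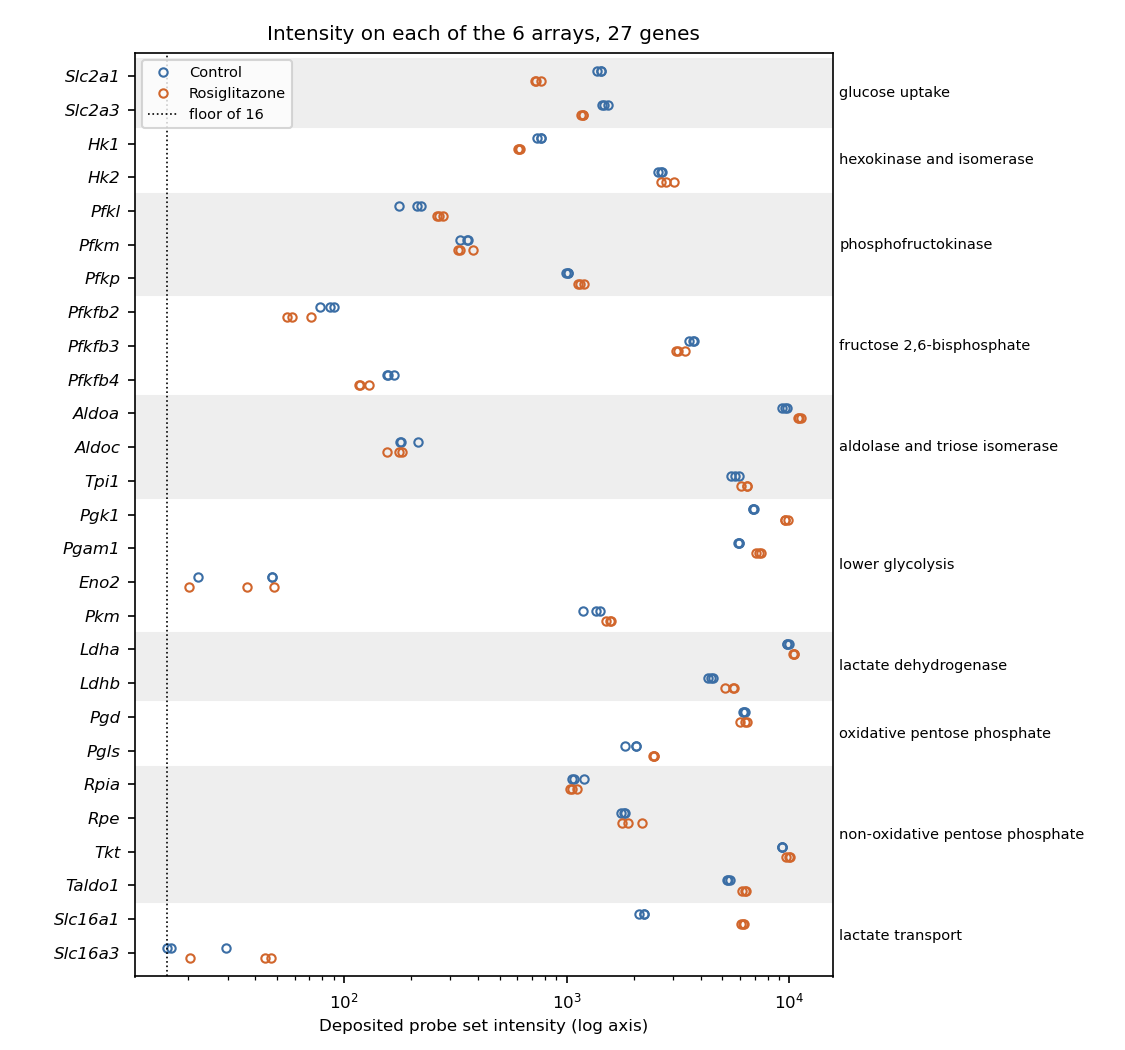
Deposited intensity (horizontal log axis) on each of the 3 Control and 3 Rosiglitazone arrays for the 27 tested genes, with each gene's own probe set, so that levels of different genes are not comparable. The groups stand apart for Slc16a1, Pgk1 and Slc2a1, and overlap for Pfkm, Eno2, Rpia and Slc16a3.

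Lactate dehydrogenase interconverts pyruvate and lactate as a tetramer of A subunits, which favour lactate formation, and B subunits, which favour its use. Ldha was at 9760, 9777 and 9961 in control cells and at 10488, 10370 and 10486 with rosiglitazone. The difference, 0.09 (SE 0.02, limma adjusted p = 0.00220), is small, and it was not called after quantile normalization (0.04) or without a variance trend (adjusted p = 0.0632). Ldhb rose from 4532, 4452 and 4319 to 5144, 5619 and 5671 (0.30, SE 0.04, limma adjusted p = 1.31e-06), and its other 3 sets gave 0.33 to 0.34.

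The oxidative arm of the pentose phosphate pathway was measured through Pgls and Pgd. Pgls encodes the lactonase of its second step and rose from 2049, 2042 and 1831 to 2459, 2474 and 2457 (0.32, SE 0.04, limma adjusted p = 3.45e-06). Pgd encodes the dehydrogenase that makes the second NADPH. It was at 6218, 6248 and 6311 in control cells and at 5988, 6315 and 6477 with rosiglitazone, so the treated arrays spanned the controls. Its log2 change was −0.00043 (95% CI −0.06 to 0.06, limma adjusted p = 0.992). The scaling decided its call: Pgd was called lower after quantile normalization (−0.08) and higher after median centring (0.12). Of its 4 sets, the 1 with the lowest mean intensity, still 2643, was called lower by itself (−0.18), without overlap between groups.

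In the non-oxidative arm, Taldo1, the transaldolase gene, rose from 5401, 5282 and 5324 to 6119, 6357 and 6375 (0.24, SE 0.03, limma adjusted p = 7.54e-07). Tkt, the transketolase gene, rose from 9308, 9294 and 9252 to 9685, 10002 and 10065 (0.09, SE 0.02, limma adjusted p = 0.00189). The call for Tkt was lost after quantile normalization (0.02) and without a variance trend (adjusted p = 0.0587). The isomerase gene Rpia was at 1054 to 1194 and 1034 to 1112, with a log2 change of −0.05 (limma adjusted p = 0.400) that was 0.04 and 0.07 under the other scalings and not called. The epimerase gene Rpe was at 1755 to 1832 and 1775 to 2190, with rosiglitazone replicate 1 the highest array. Its log2 change of 0.11 (limma adjusted p = 0.107) was called after quantile normalization (0.18), after median centring (0.23) and without rosiglitazone replicate 3 (0.18), and it was 0.024 without rosiglitazone replicate 1. H6pd, the enzyme gene of the first steps of the oxidative arm inside the endoplasmic reticulum, was named after its values were seen. It fell from 2278 to 2621 in control cells to 1656 to 1738 (log2 change −0.55, SE 0.04, limma adjusted p = 2.01e-08).

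Slc16a1 encodes MCT1, which carries lactate, pyruvate and ketone bodies together with a proton in either direction. Its intensity was 2124, 2226 and 2232 on the control arrays and 6058, 6183 and 6254 with rosiglitazone. The treated arrays were close together and all far above the controls, and Slc16a1 rose by 1.49 (95% CI 1.43 to 1.55, limma adjusted p = 1.19e-15), or 2.81-fold. A second, dim probe set read 9.37 to 14.1 in control cells, under the floor on all 3 arrays, and 49.5 to 73.9 with rosiglitazone, so its fitted change of 1.96 depends on the floor. Slc16a3 encodes MCT4, the low-affinity lactate exporter of glycolytic cells, and was near the floor. It read 15.98, 16.75 and 29.65 in control cells and 20.3, 47.0 and 44.1 with rosiglitazone, so the groups overlapped. Its log2 change of 0.80 (95% CI 0.09 to 1.52, limma adjusted p = 0.0508) did not pass the test, but it was called without control replicate 3 (1.09), without rosiglitazone replicate 1 (1.19), after median centring (0.90) and with a robust variance trend (adjusted p = 0.0489).

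Genes of the chaperones that bring monocarboxylate transporters to the cell surface changed in opposite directions. Bsg, which encodes basigin, the partner of MCT1 and MCT4, was at 2629, 2645 and 2478 in control cells and at 3903, 3913 and 3563 with rosiglitazone, a rise by 0.55 (SE 0.04, limma adjusted p = 2.87e-09). Emb, which encodes embigin, a related partner best known for MCT2, was at 1085, 1222 and 1202 and at 437.1, 508.0 and 497.0. It fell by 1.28 (SE 0.06, limma adjusted p = 1.78e-11). Bsg was named after its values were seen.

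Isoforms of one step were set against each other within each array, which cancels any scaling by a constant. Of 12 pairs listed, 10 had both genes measured. In 7 of the 10 the treated arrays lay wholly apart from the controls, which gives the smallest two-sided p an exact permutation test of 3 against 3 can reach, 0.1 (0.143 adjusted over the 10 pairs). No pair could therefore pass 0.05. Taken singly, 64% of all genes tested did not overlap between groups, and the share for pairs of other genes was not worked out. Slc2a3 stood 0.61 above Slc2a1 in log2 change (0.56 to 0.63 on the treated arrays, −0.03 to 0.03 on the controls). Hk2 stood 0.40 above Hk1 (0.34 to 0.50 against −0.06 to 0.07), and Ldhb 0.22 above Ldha (0.12 to 0.26 against −0.06 to 0.04).

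Aldoc stood 0.38 below Aldoa (−0.54 to −0.29 against −0.12 to 0.18), and the difference was −0.19 after quantile normalization. Among the phosphofructokinase genes, Pfkl stood 0.43 above Pfkm (0.26 when probe sets were averaged) and Pfkm 0.22 below Pfkp. Pfkl against Pfkp overlapped between groups (0.21, exact permutation p = 0.2) and gave −0.06 with the mean of their probe sets. Pfkfb3 stood 0.21 above Pfkfb4, without overlap by a narrow margin (0.07 to 0.35 against −0.05 to 0.06), and 0.12 above it after quantile normalization. Pfkfb3 against Pfkfb2 (0.29, or 0.18 with a floor of 64, exact permutation p = 0.2) and Slc16a3 against Slc16a1 (−0.69, exact permutation p = 0.3) overlapped.

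**Figure D3:**
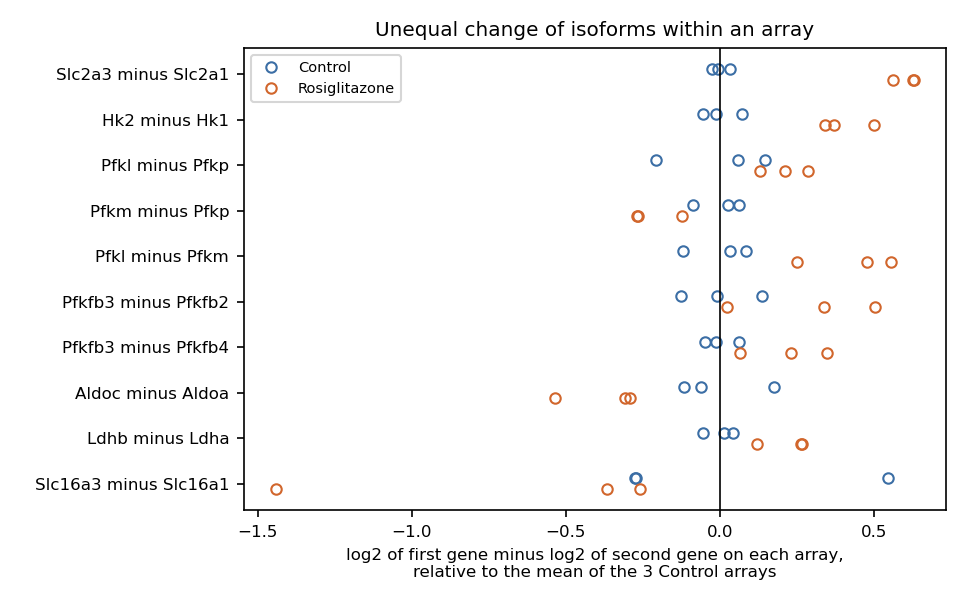
Within-array log2 difference of the isoform pairs (horizontal axis), relative to the mean of the 3 Control arrays; each point is an array. Slc2a3 minus Slc2a1 shows the widest gap between groups, at 0.56 to 0.63 on the Rosiglitazone arrays, and Slc16a3 minus Slc16a1 spans −1.44 to −0.26 and overlaps the controls.

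Where a gene had several probe sets, they mostly gave the same answer. There were 13 tested genes with at least 2 sets above the filter, 39 sets in all. All 26 sets that were not the one used changed in the same direction as the one used, 21 had the same call and 0 the opposite call. For Pgd the shared direction carries no weight, since the set used was at −0.00043. The spread was wide for dim sets, as in Pfkp (0.20 and 0.50 at mean intensities of 62.0 and 52.3) and Tkt (0.31 at 104.5 against 0.09 at 9601). The sets used for Aldoa, Tpi1, Ldhb, Pgd and Tkt are of the x_at type and that for Slc2a3 of the s_at type, which can also bind related transcripts. The other sets of Aldoa and Slc2a3 above the filter are of the x_at type too. Among the Pgd sets, only the set called lower by itself is not of the x_at type.

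**Figure D4:**
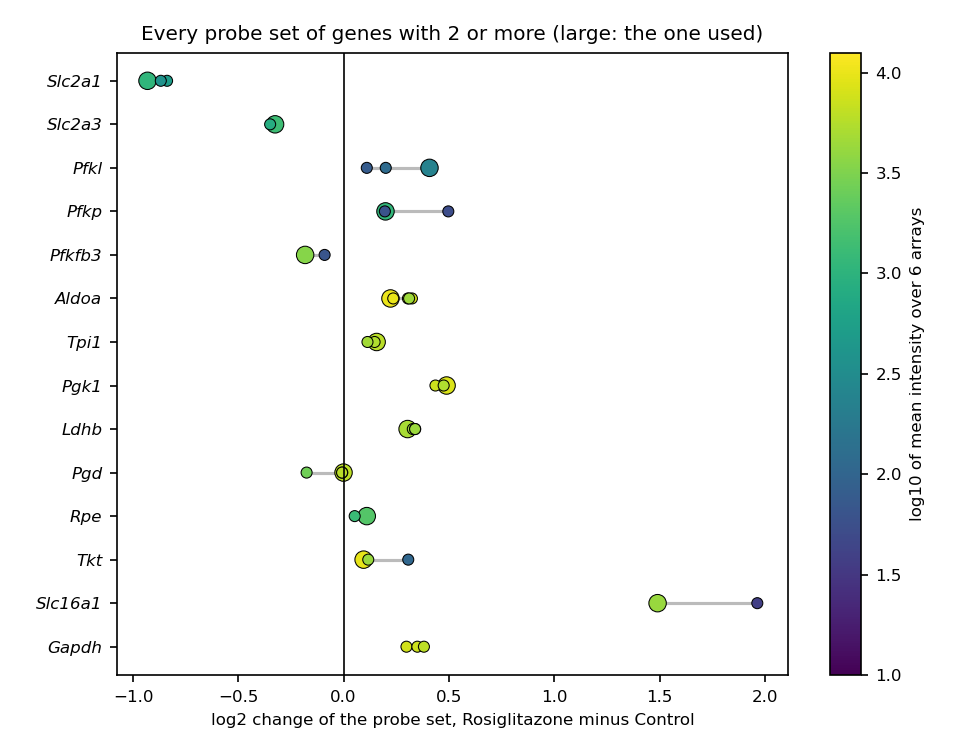
The log2 change (horizontal axis) of every single-symbol probe set above the filter for tested genes with at least 2, and the 3 control sets of Gapdh; colour is the log10 of mean intensity and the large point is the set used. Sets of one gene lie on the same side of 0, though the Pgd set used is at −0.00043. The widest range is in Slc16a1 (1.49 and 1.96, the latter against control arrays under the floor).

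Other genes of these pathways, from a wider list of 42 symbols with 30 tested, did not share one direction: 9 rose, 13 fell and 8 did not pass the test, with a median log2 change of −0.17. By comparison, 23.6% of all genes tested were called higher and 35.8% lower. Falls on this list numbered 8 after quantile normalization and 7 after median centring. Besides Emb and Tigar, the largest changes were in Pgk2, Ldhd and Prps2. Ldhd, which encodes the mitochondrial dehydrogenase of D-lactate, fell from 265.7 to 273.0 in control cells to 128.9 to 140.2 (−0.99, SE 0.07, limma adjusted p = 3.21e-09). Prps2, whose enzyme makes the ribose donor of nucleotide synthesis from the product of the pentose phosphate pathway, fell from 996.2 to 1035 to 566.7 to 601.3 (−0.80, SE 0.04, limma adjusted p = 1.20e-10), or by 0.43 when its probe sets were averaged. Pgk2, a testis copy of Pgk1, was at 28.4 to 38.5 and 59.2 to 87.7. This dim set gave a log2 change of 1.07, which was 0.19 and not called with a floor of 64. Whether it also reads Pgk1 was not tested.

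Pgp and Gpd1 were named after their values were seen. Pgp encodes the phosphatase that clears toxic side products of glycolysis and can make glycerol from glycerol phosphate. It rose from 1581 to 1634 in control cells to 2519 to 2657 (0.70, SE 0.03, limma adjusted p = 2.79e-11). Gpd1, which diverts triose phosphate to glycerol phosphate, rose from 9490 to 10050 to 13023 to 13479 (0.44, SE 0.02, limma adjusted p = 2.01e-10), and by 1.15 when its probe sets were averaged.

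Of 18 measured regulators of glycolytic genes 4 rose and 10 fell (6 fell with the mean of probe sets), with a median log2 change of −0.19. The shares for all genes tested were 23.6% higher and 35.8% lower. Hif1a, the oxygen-regulated subunit gene of HIF-1, named after its values were seen, fell from 2879 to 3112 in control cells to 2440 to 2660 (−0.22, limma adjusted p = 0.000119), or by 0.098 after median centring and 0.12 when its probe sets were averaged. The growth regulator gene Myc fell by 0.44 and Bhlhe40, a repressor gene of the clock and hypoxia responses, fell by 1.21. Txnip, whose protein restrains glucose uptake by removing GLUT1 from the surface, rose from 3726 to 3880 to 4991 to 5454 (0.46, SE 0.03, limma adjusted p = 4.82e-09). The mitochondrial regulators Ppargc1a and Esrra rose by 1.18 and 0.69.

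Genes that hypoxia induces outside glycolysis did not move as one group either. Of 20 measured, 6 rose, 9 fell and 5 did not pass the test, with a median of −0.01. After median centring 9 rose and 8 fell. Over all genes tested as deposited, 23.6% were called higher and 35.8% lower. Egln3, which encodes a HIF prolyl hydroxylase, was at 108.4, 127.4 and 114.6 in control cells and at 753.4, 731.7 and 746.9 with rosiglitazone. It rose by 2.67 (SE 0.07, limma adjusted p = 1.29e-14). Ero1a, a gene of disulphide formation, rose by 0.69, while Adm (adrenomedullin) fell by 1.36, the mTORC1 inhibitor gene Ddit4 fell by 1.24 and Ndrg1 fell by 0.88. Of 14 targets of NRF2, a factor that also drives pentose phosphate genes, 5 rose and 6 fell (3 fell after median centring), with a median of −0.09. Nqo1 fell by 0.61, the export pump gene Abcc1 fell by 0.53 and Osgin1 fell by 0.32, while Gsta4 and Srxn1 rose by 0.33 and 0.30. Averaging probe sets gave −0.22 for Abcc1 and 0.17 for Srxn1, and median centring gave −0.20 for Osgin1.

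**Figure D5:**
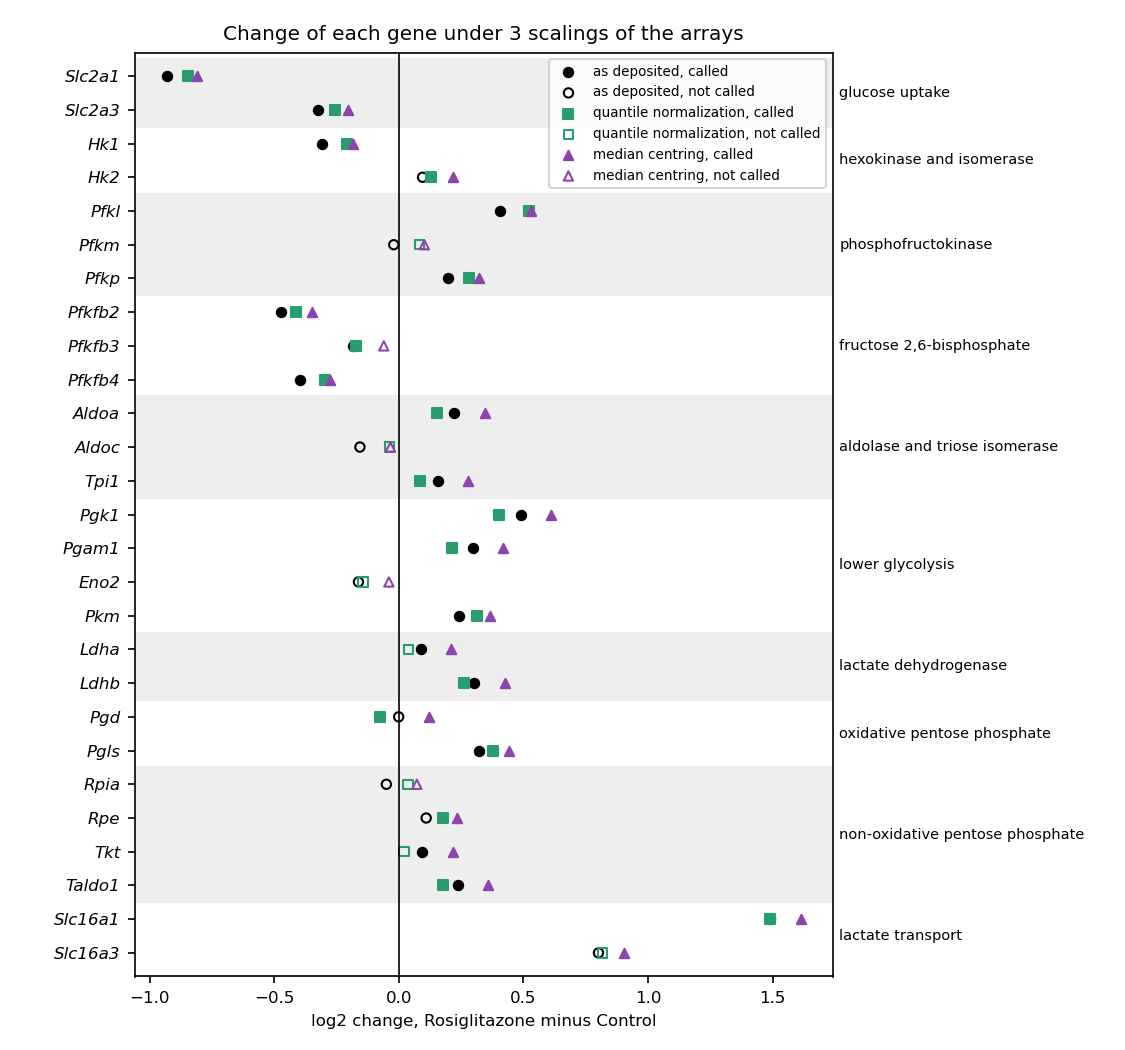
The log2 change of each tested gene (horizontal axis) as deposited, after quantile normalization and after median centring, with filled symbols for calls and open symbols for changes that did not pass the test. Pgd is at −0.08 and called after quantile normalization and at 0.12 and called after median centring, whereas Slc2a1 lies between −0.93 and −0.81 and Slc16a1 between 1.49 and 1.61 under all 3.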

How the data were processed

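Gene expression was measured on 6 mouse arrays whose control probe sets carry Affymetrix names. The deposited values are probe set intensity on a linear scale that the authors had brought to a common level. The authors' software was not given in the sources used here. GEO's platform annotation supplied gene symbols (34945 probe sets with 1 symbol, 932 with several, 9160 unlisted, 64 controls). Controls and the dimmest 40% (mean intensity under 27.3) were dropped, values under 16 were set to 16, and log2 was taken. The probe set with the highest mean stood for each gene. The test was limma 3.58.1 (R 4.3.3) on groups of 3 arrays (variance trend, two-sided, Benjamini-Hochberg over 12952 genes, threshold 0.05), after a check on simulated data. A fit on single probe sets was added after seeing the data. The genes, lists and tests were chosen with earlier results of these data known. All listed pathway genes are named, with up to 5 called genes of largest change per other list; genes outside this rule are marked as such. Alternatives comprised different filters, scalings, floors, probe set rules and variance models, the replicate number as a block, and each array left out.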

Additional observations from a re-analysis of the deposited data

How the results depend on the processing

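Every alternative kept the counts of rises and falls among the pathway genes within 1.5 times: 11 to 17 were higher and 5 to 7 lower over 17 alternatives. Changes that did not pass the test turned sign under other scalings: Pfkm was 0.083 after quantile normalization and 0.10 after median centring, Rpia 0.036 and 0.073, and Pgd 0.12 after median centring. Leaving out 1 array, the change ranged from −0.089 to 0.022 for Pfkm, from −0.53 to 0.19 for Eno2, from −0.025 to 0.031 for Pgd and from −0.085 to 0.0047 for Rpia. Median centring raised the median change of all genes by 0.12, and Pfkm, Rpia and Pgd were at −0.02, −0.05 and −0.00043 as deposited. The cause of the other shifts was not tested. With the replicate number as a block, 15 genes were higher and 6 lower, and Hk2 (log2 change 0.10, limma adjusted p = 0.0238) and Slc16a3 (0.80, limma adjusted p = 0.0228) were called. Deviations of same-numbered arrays correlated at −0.02, −0.02 and 0.06, within the −0.08 to 0.09 of differently numbered arrays. With 3 arrays a group these values cannot tell whether the numbers mark pairs. A floor of 64 left no value for Eno2 and Slc16a3, which lay under it on all arrays, and such dim probe sets limit what can be seen of both.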
